A study of Mus musculus with 4 samples.

Results

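RNA levels of 10 genes that control the G1 phase of the cell cycle were described in naive T cells and after 3 h of stimulation. Entry into the cell cycle itself was not measured. The genes were the D cyclins Ccnd2 and Ccnd3, the E cyclins Ccne1 and Ccne2, and the kinases Cdk4 and Cdk6. They also included the inhibitors Cdkn1a (p21), Cdkn1b (p27), Cdkn2c (p18) and Cdkn2d (p19, of the INK4 family). All probes that carry these gene names in the array files were taken whatever their values, which gave 23 of 56605 probes and 10 of 32498 genes with values. Within 3 h of stimulation, both kinases were more than 2-fold higher than in naive T cells and Cdkn2d and Cdkn1b were among the transcripts with the largest decreases, in both genotypes. Cdkn1a came from below background to a measurable level. Cdk6 was the one member that was more than 2-fold apart between the genotypes, with a 2.29-fold higher level on the array labelled Nr4a-TKO at 3 h.

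D cyclins accumulate in response to growth signals and bind Cdk4 and Cdk6, and these kinases begin the phosphorylation of the retinoblastoma protein that holds E2F factors inactive. E cyclins, which act with Cdk2, complete that step before DNA replication. INK4 inhibitors such as Cdkn2c and Cdkn2d bind Cdk4 and Cdk6 alone, while the Cip/Kip inhibitors Cdkn1a and Cdkn1b bind cyclin-CDK complexes more broadly, and Cdkn1b is known for its high level in resting T cells.

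The samples were 4 single-colour mouse expression arrays with 1 array for each group, which were naive T cells and induced regulatory T (iTreg) cells after 3 h of culture, each from WT and from Nr4a-TKO marrow. Naive cells were sorted from spleen and lymph nodes as CD4+, CD25low, CD44low, CD62L-high and Foxp3-. The Nr4a triple knockout (TKO) lacks Nr4a1, Nr4a2 and Nr4a3, nuclear receptors that are immediate early genes of T cell receptor signalling. The methods list floxed Nr4a1 and Nr4a2 alleles, an Nr4a3-/- allele and a Foxp3 hCD2-hCD52 reporter, all on C57BL/6J. Cells of both genotypes were sorted from irradiated Rag2-/- bone marrow chimeras, a sort for which the methods name no CD25 gate. The Nr4a-TKO cells had developed in mice that also received WT marrow, whereas the WT cells came from mice given WT marrow alone, so genotype and the kind of chimera cannot be told apart. The methods describe the mice of these lines as young adults of both sexes, used in age-matched cohorts. Which of them stood behind each array, the number pooled and the Cre line of the conditional alleles were not given in the sources used here. For iTreg cells, naive cells of either genotype were cultured for 3 h on anti-CD3 (2 μg/ml) with anti-CD28 (0.5 μg/ml), IL-2 (10 ng/ml), antibodies against IFN-γ and IL-4, and TGF-β1, for which the labels give 0.2 or 0.5 ng/ml without saying which dose the arrays had. There was no culture without TGF-β1 and no later time among the arrays used, so stimulation, culture and the iTreg condition cannot be told apart.

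Values below are normalized log2 levels, and a change or difference is a difference of such levels. The median SD between repeated spots of a probe gave an SD of 0.18 for a difference between 2 arrays, and 2 such SDs, 0.37, served as the limit below which levels are described as close. This SD covers the arrays alone. It is set mostly by bright probes and is too small for dim ones, whose repeated spots varied more. With no second mouse or culture in any group, no difference could be tested against the spread between replicates, and more than 2-fold is used as a description. In bulk RNA, fewer cells that carry a transcript and less of it per cell cannot be told apart, and quantile normalization sets aside any change in total RNA per cell. Between 64.9% and 67.6% of probes were well above background per array.

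The targeted genes did not all read as the labels state. Of the 3 Nr4a3 probes, differences of Nr4a-TKO minus WT at 3 h were -1.85, -1.46 and 0.19. The Nr4a1 probe was instead higher by 0.48 and the Nr4a2 probes were higher by 1.37 and 1.38 on the array labelled Nr4a-TKO. Between the naive arrays, in the same order of probes, the differences were 0.08, -0.39 and 0.02 for Nr4a3. They were 1.33 for Nr4a1 and 0.76 and 0.19 for Nr4a2. Whether these probes lie in the deleted parts was not established, so genotypes are given here as the arrays are labelled. Markers fitted the sort in part. All 5 measured CD4 T cell markers were well above background on the 4 arrays, with a summed linear level between 8414 and 16703, and all 7 activation markers were more than 2-fold higher at 3 h in both genotypes. Of 5 naive T cell markers, 4 were more than 2-fold lower at 3 h in WT and 5 in Nr4a-TKO. Foxp3 and Ikzf2, markers of Treg cells, were above background on the 4 arrays with a summed level of 296 and 247 in WT and 117 and 143 in Nr4a-TKO, naive and 3 h respectively. All 5 B cell markers were also above background on the 4 arrays, with sums of 625 and 390 in WT and 716 and 542 in Nr4a-TKO. Of 5 myeloid markers, 3 were above background on the 4 arrays, and their summed level of 34544 to 39644 came mostly from the Itgam probe. Of 2 NK markers none was above background on the 4 arrays, with Ncr1 below background throughout. Both CD8 T markers and all 3 erythroid markers were above background on the 4 arrays, with summed levels between 74.4 and 142 and between 141 and 186. The part of other cell types in the differences between genotypes was not tested.

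Of the 10 genes, 9 could be compared between naive T and iTreg in each genotype, and Ccne2 could not. In WT, 4 were more than 2-fold higher at 3 h (Cdk4, Cdk6, Cdkn1a and Cdkn2c) and 3 were more than 2-fold lower (Ccnd3, Cdkn1b and Cdkn2d). Over all 23224 genes compared, 8.4% were more than 2-fold higher and 8.55% lower. In Nr4a-TKO, 3 were higher (Cdk4, Cdk6 and Cdkn1a) and the same 3 were lower, against 7.78% and 7.98% of 23713 genes. Ccnd2 and Ccne1 stayed within 2-fold. The median change of the members was 0.38 in WT and 0.18 in Nr4a-TKO, with members on both sides, against medians of all genes of -0.05 and -0.02. By probe, 10 of 22 were higher and 5 lower in WT, where 9.23% and 8.47% of all probes were. In Nr4a-TKO, 9 were higher and 5 lower, where 8.19% and 7.92% of all probes were.

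**Figure D1:**
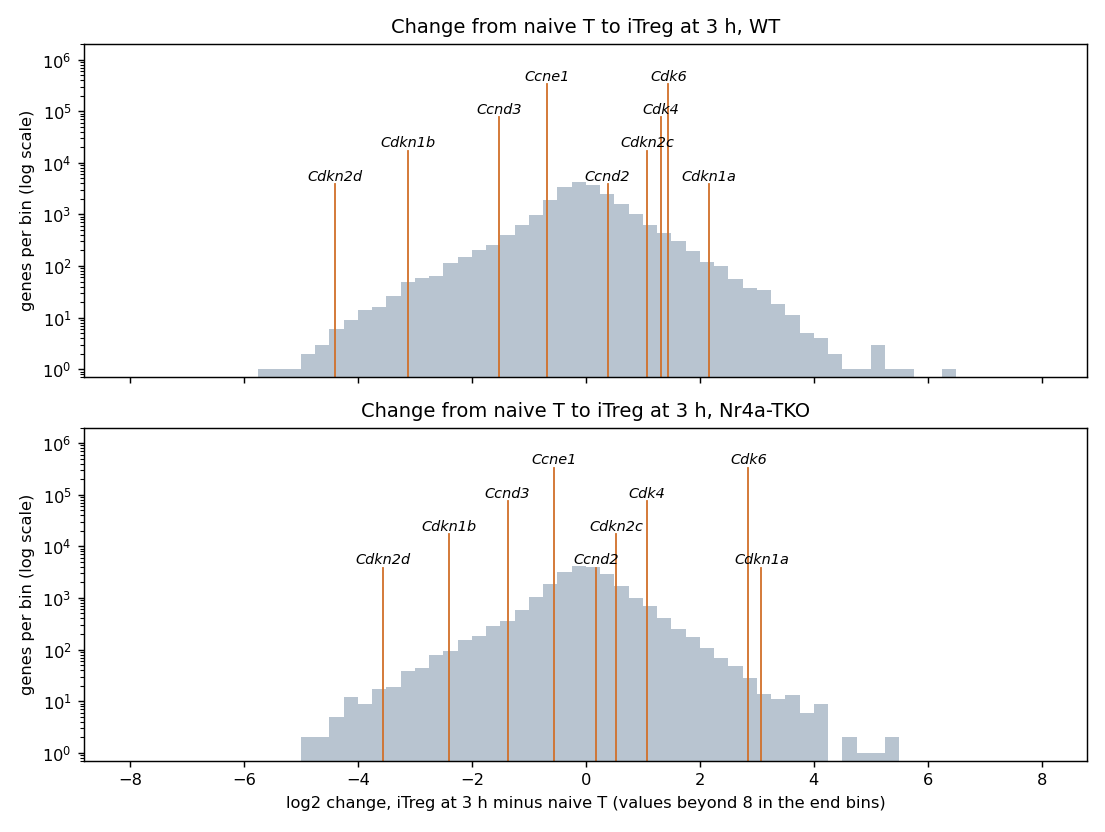
Distribution over all genes compared of the log2 change, iTreg minus naive T (grey bars, bins of 0.25, log scale) in WT (top) and Nr4a-TKO (bottom), with the 9 measured members as orange lines whose heights only separate the names. Cdkn2d at -4.41 in WT sits in the far left tail, Cdk6 moves from 1.45 in WT to 2.85 in Nr4a-TKO, and the Cdkn1a line is a lower bound.

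The D cyclins went separate ways. Ccnd2, a D cyclin induced by growth signals in lymphocytes, had levels of 10.41 in WT naive T, 10.82 in Nr4a-TKO naive T, 10.79 in WT iTreg and 11.00 in Nr4a-TKO iTreg. On each of its 3 probes WT naive T was lowest and Nr4a-TKO iTreg highest. Its changes were 0.38 to 0.61 in WT and 0.18 to 0.58 in Nr4a-TKO, and none of the probes reached 2-fold. The naive cells labelled Nr4a-TKO already read higher than WT by 0.41 to 0.48 on the 3 probes, just above the 2 SD limit. At 3 h Nr4a-TKO was higher by 0.21 on the brightest probe and by 0.46 and 0.30 on the others. Of these differences only 0.46 was above that limit.

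Ccnd3, a D cyclin known from lymphocyte development, was lower at 3 h. Its brightest probe read 8.87 in WT naive T, 8.52 in Nr4a-TKO naive T, 7.34 in WT iTreg and 7.15 in Nr4a-TKO iTreg. That is 2.88-fold lower in WT and 2.59-fold lower in Nr4a-TKO, and within each stage the genotypes were within 2 SD of each other on this probe. A second probe was 3.41-fold and 2.77-fold lower, and on it the naive array labelled Nr4a-TKO was lower than WT by more than 2 SD (-0.57). It overlaps most of the first, at chr17:47736572-47736631 against 47736579-47736638 on mm9, so it is hardly a separate reading. Their longest identical run is 30 bases, and past a mismatch the sequences match again. The third probe, designed on the Ensembl transcript ENSMUST00000182281, did not follow and its changes were -0.13 and -0.34. The decrease therefore rests on overlapping probes for NM_001081636.

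Ccne1, the E cyclin with a signal, had 1 probe, at 5.59 in WT naive T, 5.77 in Nr4a-TKO naive T, 4.92 in WT iTreg and 5.20 in Nr4a-TKO iTreg. Both iTreg arrays were below both naive arrays, by 0.67 in WT and 0.56 in Nr4a-TKO, which is less than 2-fold. Ccne2 had 1 probe, whose processed signals of 4.35, 1.43, 3.71 and 4.70 were not well above background on any array. No level or difference is given for Ccne2.

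**Figure D2:**
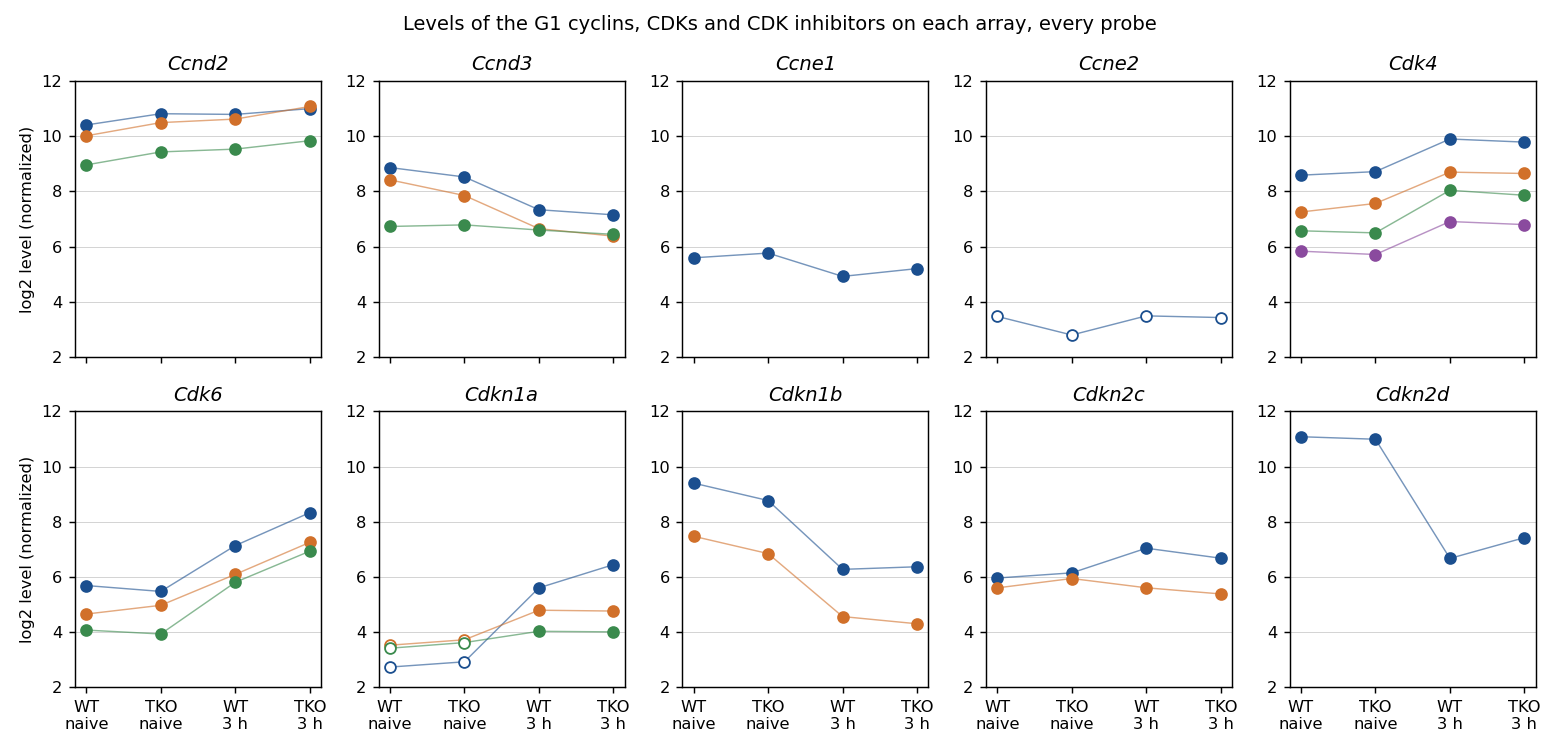
Normalized log2 level of every probe of the 10 genes on the 4 arrays, 1 colour a probe, with open circles for readings not well above background. The lines join the readings of a probe and are no time course. Cdk4 and Cdk6 step up at 3 h, Cdkn1b and Cdkn2d step down, and Ccne2 is open throughout.

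Both kinases were higher at 3 h on all of their probes. Cdk4 had 4 probes, and the brightest read 8.59 in WT naive T, 8.72 in Nr4a-TKO naive T, 9.90 in WT iTreg and 9.79 in Nr4a-TKO iTreg. The naive arrays were close to each other and so were the iTreg arrays, with a gap between the stages. The increase was 2.48-fold in WT and 2.10-fold in Nr4a-TKO on this probe. Over the 4 probes it was 2.11-fold to 2.77-fold in WT and 2.10-fold to 2.57-fold in Nr4a-TKO, and 2 of these probes share 53 of their 60 bases. With a background offset of 50, the Nr4a-TKO change of the brightest probe was 0.99 on the log2 scale, just under 2-fold. The other probes then had changes of 0.65, 0.92 and 1.01 in Nr4a-TKO and, in the same order, 0.67, 1.20 and 1.11 in WT. The genotypes differed by less than 2 SD on each of the 4 probes at either stage.

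The Cdk4 promoter is shown because it holds 4 copies of the E-box CACGTG, a sequence that Myc and related factors are known to bind. The window of RefSeq on GRCm38.p6 is chr10:127063285-127063584 on the + strand, from 250 bases before to 50 after the start, with the E-boxes in capitals.
Cdk4: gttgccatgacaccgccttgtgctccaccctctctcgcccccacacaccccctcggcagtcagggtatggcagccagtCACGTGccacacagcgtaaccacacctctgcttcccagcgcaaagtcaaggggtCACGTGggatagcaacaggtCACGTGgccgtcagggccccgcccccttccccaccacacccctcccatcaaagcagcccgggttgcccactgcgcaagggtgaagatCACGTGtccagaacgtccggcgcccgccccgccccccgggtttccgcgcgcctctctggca
Relative to the start site, the copies begin at -172, -118, -98 and -11. Over 32851 promoter windows of this length, 7.15% hold at least 1 CACGTG and 8 windows hold 4 or more. A match is a run of letters, and no binding was measured here.

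At 3 h, Cdk6 had the largest difference between genotypes of the 9 members measured. Its brightest probe read 5.69 in WT naive T, 5.48 in Nr4a-TKO naive T, 7.14 in WT iTreg and 8.33 in Nr4a-TKO iTreg. The naive arrays were within 2 SD of each other, WT iTreg was clearly above them, and Nr4a-TKO iTreg was above WT iTreg. As processed signals these were 44.8, 38.4, 153 and 381. The change was 2.73-fold in WT and 7.23-fold in Nr4a-TKO, and 73 of 23713 genes (0.308%), Cdk6 counted, were that high in Nr4a-TKO.

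The other 2 Cdk6 probes repeated the order of the stages and of the genotypes at 3 h. Between the naive arrays their differences were 0.32 and -0.14, within 2 SD. At 3 h the array labelled Nr4a-TKO was higher by 1.19, 1.16 and 1.13 on the 3 probes, or 2.29-fold, 2.23-fold and 2.19-fold. The change in Nr4a-TKO minus the change in WT was 1.41, 0.84 and 1.27, where the SD of such a value from repeated spots was 0.26. That SD was taken over repeated probes of all levels. It is too small for the naive Cdk6 readings, all below a log2 level of 6. There, repeated spots had a median SD of 0.16 to 0.18, against 0.11 to 0.13 above. Among all 19799 genes with such a difference between changes, 1.71% had a change more than 2-fold higher in Nr4a-TKO, and Cdk6 was the 1 of 8 members there. None of the 8 had a change more than 2-fold lower in Nr4a-TKO, where 1.56% of all genes had. At 3 h 277 genes (1.18%), Cdk6 counted, were as much higher in Nr4a-TKO as Cdk6. These signals are dim. With a larger background offset of 50, the brightest probe had a difference at 3 h of 0.96 and a WT change of 0.91. Both were under 2-fold and in the same direction. On the other 2 probes the differences were then 0.78 and 0.70, and the WT changes 0.65 and 0.67. Without background correction the 3 probes had differences at 3 h of 1.11, 0.98 and 0.92. With the processed signal scaled to the 75th percentile they had 1.38, 1.27 and 1.28.

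The Cdk6 probes are separate pieces of the transcript, which is why they are shown. The longest run of bases that any pair has in common is 6. The first 30 bases of each 60-base probe are given, with coordinates of the whole probe on mm9, + strand.
Cdk6, chr5:3529287-3529346: tgcgtagaagtatatggcttcactgtaaag
Cdk6, chr5:3525114-3525173: gcacatatggatagccattggaagaataca
Cdk6, chr5:3522088-3522147: cgactgtcacttggtgtttcctatctttaa
The first is the brightest and the last the dimmest, in the order of the values above. They begin at base 9803 and base 5630 of ENSMUST00000165117 and at base 2332 of NM_009873.

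The Cdk6 promoter window holds 1 E-box, at -220 from the start (GRCm38.p6, chr5:3343643-3343942, + strand, E-box in capitals).
Cdk6: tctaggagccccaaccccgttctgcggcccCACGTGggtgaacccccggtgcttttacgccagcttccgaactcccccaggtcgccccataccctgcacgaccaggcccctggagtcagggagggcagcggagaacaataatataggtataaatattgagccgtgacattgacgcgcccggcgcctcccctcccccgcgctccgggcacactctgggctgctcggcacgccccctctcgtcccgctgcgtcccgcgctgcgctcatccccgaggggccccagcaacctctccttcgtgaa
No Nr4a motif (AAAGGTCA or AAATGTCA on either strand, held by 3.0% of all windows) is in this window, which speaks only of these letters in these bases.

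Of the INK4 inhibitors, Cdkn2d was much lower at 3 h, and Cdkn2c was higher in WT on 1 of its 2 probes. Cdkn2d read 11.08 in WT naive T, 10.99 in Nr4a-TKO naive T, 6.67 in WT iTreg and 7.43 in Nr4a-TKO iTreg. The genotypes were close on the naive arrays, and both iTreg arrays were far lower. The decrease was 21.2-fold in WT and 11.8-fold in Nr4a-TKO. Only 10 of 23224 genes (0.0431%), Cdkn2d counted, were as low or lower in WT, and 43 of 23713 (0.181%) in Nr4a-TKO. What remained at 3 h was 1.68-fold higher on the array labelled Nr4a-TKO (log2 difference 0.75). The gene has 1 probe, so no second reading of it exists on these arrays.

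Cdkn2c was read by 2 probes that differed. The probe designed on NM_007671 read 5.96 in WT naive T, 6.15 in Nr4a-TKO naive T, 7.04 in WT iTreg and 6.68 in Nr4a-TKO iTreg, a change of 2.11-fold in WT and 1.45-fold in Nr4a-TKO. The probe designed on U19596 read 5.61, 5.95, 5.61 and 5.39 in the same order, a change of 0.00 in WT and -0.56 in Nr4a-TKO. The pair shares a run of 40 bases, and the 20 bases that only one of them has are shown here, since the readings differ between probes that differ in no other bases.
NM_007671 probe, before the shared run: tctcactgacctcacactgt
U19596 probe, after the shared run: aaatatagggtttcttcgct
The count of Cdkn2c among the genes more than 2-fold higher in WT depends on the first probe. The mean of both was a change of 0.54.

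The Cip/Kip inhibitors also moved in opposite directions. Cdkn1b read 9.40 in WT naive T, 8.77 in Nr4a-TKO naive T, 6.28 in WT iTreg and 6.37 in Nr4a-TKO iTreg. Both naive arrays were above both iTreg arrays on each of its 2 probes. The decrease was 8.72-fold in WT and 5.28-fold in Nr4a-TKO on this probe, and 7.51-fold and 5.83-fold on the other, which shares no run over 7 bases with it. Only 105 genes (0.452%), Cdkn1b counted, were as low or lower in WT. Before stimulation the array labelled Nr4a-TKO was lower by 0.63 on both probes, or 1.55-fold and 1.54-fold. At 3 h the differences were 0.09 and -0.26, within 2 SD.

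Cdkn1a, a target of p53 and of growth signals, was not well above background on either naive array with any of its 3 probes. Its brightest probe had processed signals of 1.77 in WT naive T, 1.66 in Nr4a-TKO naive T, 50.6 in WT iTreg and 96.1 in Nr4a-TKO iTreg, and log2 levels of 5.61 and 6.45 at 3 h. Against the lowest level that counted as above background on each naive array, or the probe's own reading where that was higher, Cdkn1a was at least 4.47-fold higher in WT and at least 8.46-fold higher in Nr4a-TKO. The second probe gave at least 2.41-fold and at least 2.06-fold, and the third a log2 change of at least 0.59 and at least 0.39, under 2-fold. These bounds depend on the background correction, and with an offset of 50 the log2 change of the brightest probe was 0.70 in WT, under 2-fold, and 1.19 in Nr4a-TKO.

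The genotypes were read differently by the Cdkn1a probes at 3 h. On the brightest probe the array labelled Nr4a-TKO was higher by 0.84, or 1.79-fold. On the other 2 the differences were -0.03 and -0.02. The 3 probes were designed on different transcript records, and the first 30 bases of each are shown with the mm9 position of the whole probe (+ strand), because the difference between genotypes is present on the first alone.
NM_007669, chr17:29237377-29237436: ctaagggagctcacaggacactgagcaatg
ENSMUST00000122348, chr17:29235299-29235358: tggggtagtttccatagtgacccgggtcct
NM_001111099, chr17:29227986-29228045: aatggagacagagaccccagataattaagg
The first probe begins at base 1619 of its transcript, and the others at base 147 and base 55 of theirs. The other probes were also dimmer at 3 h, with processed signals of 18.7 and 18.5, and of 9.80 and 9.84, in WT and Nr4a-TKO.

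**Figure D3:**
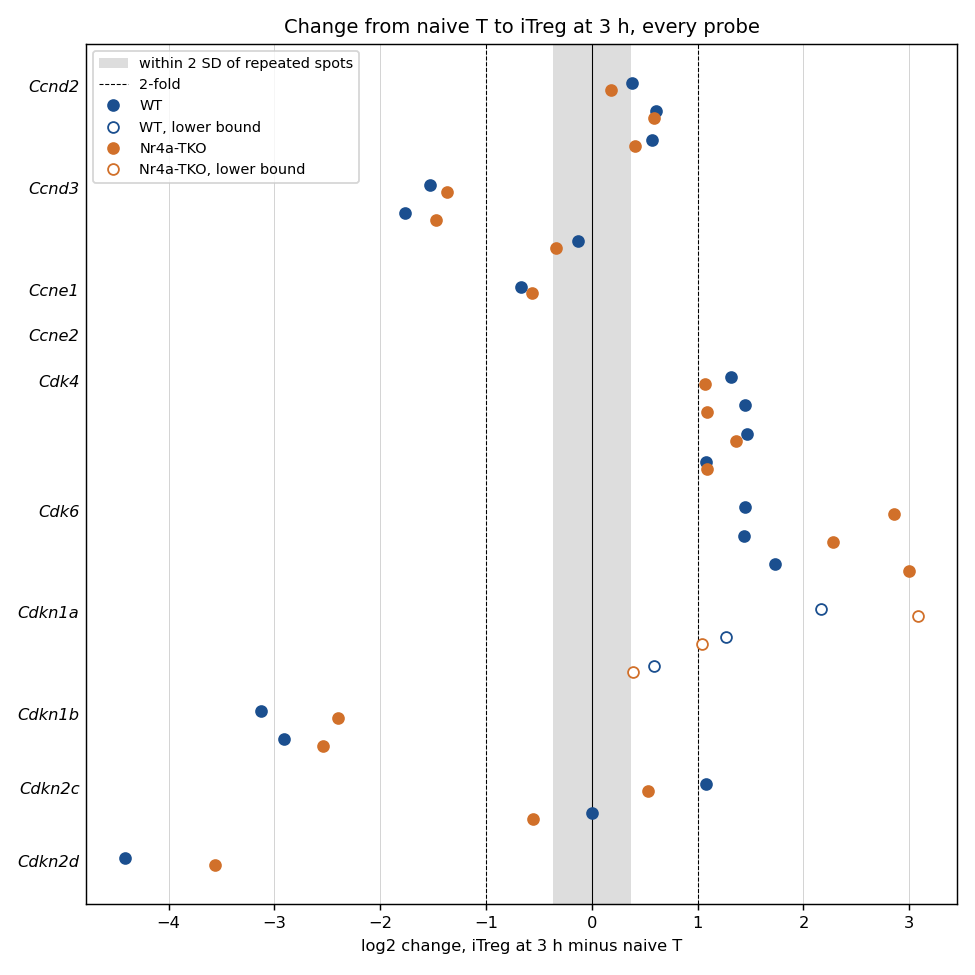
Log2 change of every probe between naive T cells and iTreg cells, WT in blue and Nr4a-TKO in orange, open circles for lower bounds, dashed lines at 2-fold and grey for 2 SD of repeated spots. All 4 Cdk4 and all 3 Cdk6 probes lie right of 2-fold in both genotypes, and both Cdkn1b probes and the Cdkn2d probe lie left of it.

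Between the genotypes, naive cells showed no member more than 2-fold apart among the 8 measured, where 1.92% of all genes were higher and 1.68% lower in Nr4a-TKO. None of their 19 measured probes was either, where 1.83% and 1.67% of all probes were. On their brightest probe, 6 of these 8 genes were within 2 SD, as were 77.4% of all genes compared. The others were Ccnd2 (0.41) and Cdkn1b (-0.63). At 3 h, Cdk6 was the 1 member of 9 that was more than 2-fold higher on the array labelled Nr4a-TKO and none was more than 2-fold lower, where 1.74% of all genes were higher and 1.93% lower. Cdk6, Cdkn1a and Cdkn2d were outside 2 SD at 3 h on their brightest probe, all higher in Nr4a-TKO. The other 6 were within it on theirs, against 77.8% of all genes, though another Ccnd2 probe was outside it (0.46). By probe, 3 of 22 were more than 2-fold higher, all of Cdk6, where 1.64% of all probes were. No probe was more than 2-fold lower, where 1.89% of all probes were. The median difference of the members was 0.02 in naive cells and 0.21 at 3 h, and that of all genes was -0.02 and 0.00.

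Among the 8 members measured on all arrays, the changes of Cdk6, Cdkn2d and Cdkn1b differed most between the genotypes, and Cdkn1a has no such value because its changes are bounds. In Nr4a-TKO minus WT these differences of changes were 1.41, 0.84 and 0.73 on the representing probes, against a median of 0.02 over all genes. For Cdkn2d and Cdkn1b a positive value stands for a smaller decrease. For Cdkn1b it came from the lower naive level labelled Nr4a-TKO, since the 3 h levels were close, and its second probe gave 0.37. For Cdkn2d it came from the 3 h level, since the naive levels were close. Cdkn2c had -0.55 and -0.56 on its 2 probes, the values on which those probes came closest. The comparisons share arrays, so the change in a genotype and the difference at a stage are not separate evidence.

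**Figure D4:**
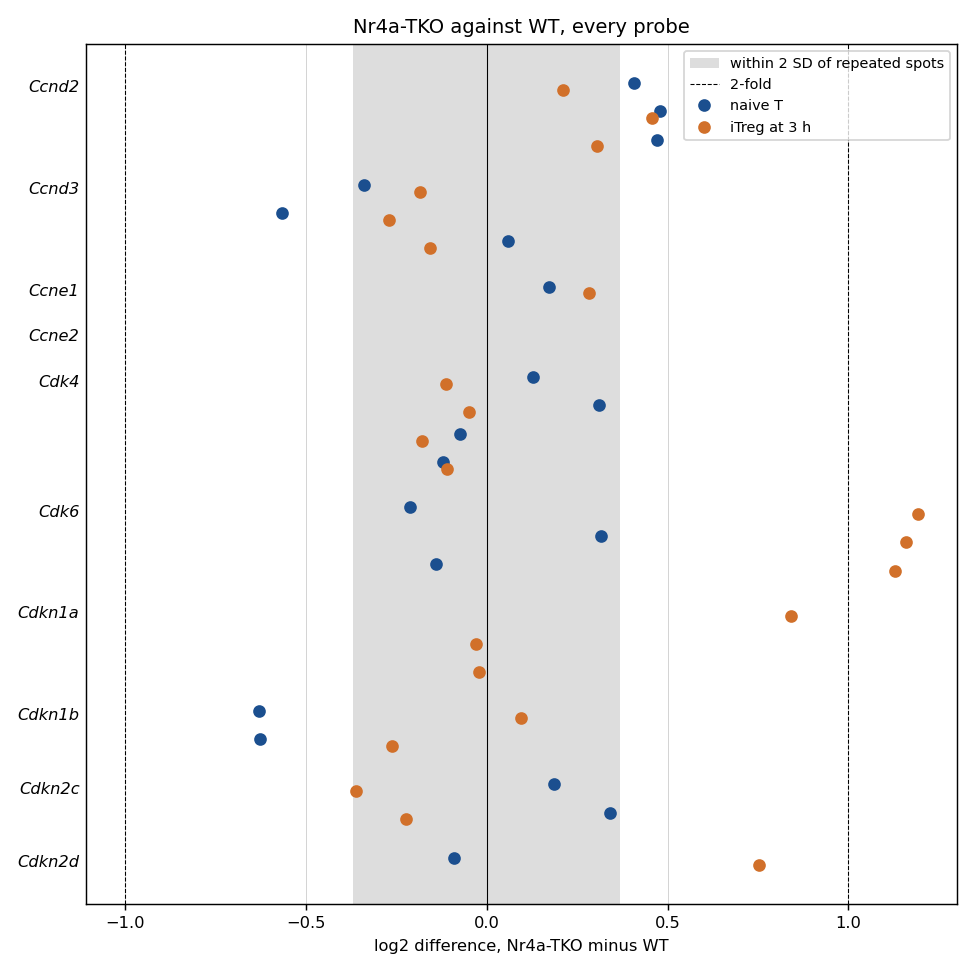
Log2 difference of Nr4a-TKO minus WT for every probe, naive T in blue and iTreg at 3 h in orange, dashed lines at 2-fold and grey for 2 SD of repeated spots. The 3 Cdk6 probes at 3 h lie together between 1.13 and 1.19, and no naive probe passes 2-fold.

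The Ccnd3 promoter was the 1 member window that held an Nr4a motif. RefSeq windows were found for 8 of the 10 genes, 11 windows in all, and none was listed for Ccnd2 and Ccne2. One of the 2 Ccnd3 windows is shown (GRCm38.p6, chr17:47504801-47505100, + strand). Its capitals mark the reverse complement of the Nr4a motif AAAGGTCA at -97 from the start, of the forkhead motif GTAAACA at -243 and of 2 Ets motifs AGGAAG at -237 and -1, the first of which overlaps the forkhead match by 1 base.
Ccnd3: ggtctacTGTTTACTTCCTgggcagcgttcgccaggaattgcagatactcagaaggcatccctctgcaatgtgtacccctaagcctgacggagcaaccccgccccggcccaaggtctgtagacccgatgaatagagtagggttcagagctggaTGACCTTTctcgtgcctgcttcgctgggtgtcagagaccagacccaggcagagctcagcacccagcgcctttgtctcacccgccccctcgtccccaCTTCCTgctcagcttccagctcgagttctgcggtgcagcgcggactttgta
Of all windows, 3.0% hold an Nr4a motif, 3.65% the forkhead motif and 35.4% the Ets motif. E-boxes were in 3 of the 11 member windows (Cdk4, Cdk6 and one of Cdkn2c) and Ets motifs in 3 (Ccnd3, Cdkn1a and Cdkn2c). None of the 11 held an E2F motif (TTTCCCGC, TTTGGCGC, TTTCGCGC or TTTGCCGC, 2.26% of all windows) or the CRE TGACGTCA (1.79%). The windows of Ccne1, Cdkn1b and Cdkn2d, and 1 window each of Ccnd3, Cdkn1a and Cdkn2c, held none of the motifs searched.

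By the distance between patterns over the 4 arrays, each taken relative to WT naive T, the genes nearest to Cdk6 among 15645 genes above background on the 4 arrays were Ccl4 (distance 0.30), C9orf72 (0.35) and Rbpj (0.35). Ccl4 encodes a chemokine and Rbpj the DNA-binding partner of Notch. Nearest to Cdkn2d were Flt3l (0.34), S1pr1 (0.37) and Txnip (0.39). S1pr1 encodes the receptor that guides T cells out of lymphoid organs and Txnip a repressor of glucose uptake. Within a distance of 0.5 there were 5 genes for Cdk6 and 3 for Cdkn2d, and a likeness over 4 arrays says nothing of shared control.

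Among the partners and targets of the members, levels were higher for some and lower for others. As background for this and the following lists, 8.4% of all genes were more than 2-fold higher and 8.55% lower in WT. In Nr4a-TKO these shares were 7.78% and 7.98%. Of 25 other G1 genes measured, 5 were more than 2-fold higher in WT at 3 h and 5 lower, with a median change of 0.35. Higher were E2f6 (1.79), Tfdp1 (1.61), E2f5 (1.37), Wee1 (at least 1.36) and E2f3 (1.07). The 3 E2f6 probes disagreed, with changes from -1.16 to 1.79 in WT. The E2f5 and E2f6 products are repressive E2F factors, Tfdp1 encodes the partner that E2F factors bind DNA with, and Wee1 encodes an inhibitory kinase of CDKs. Lower were the pocket proteins Rbl1 (-1.87) and Rbl2 (-1.68), E2f2 (-1.98), Tfdp2 (-1.23, with its probes from -1.23 to 0.03) and Cdkn2a. Cdkn2a, an INK4 gene, rested on 1 probe that read 7.30 on the WT naive array alone and 3.78, 3.41 and 3.12 on the others. Cdkn2b did the same on the Nr4a-TKO naive array alone, at 7.12 against 3.91, 4.08 and 3.88. In Nr4a-TKO, 8 of the 25 were higher and 5 lower.

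The genes of replication and division had median changes of 0.02 and -0.21 in WT, where that of all genes was -0.05. Of 16 replication licensing genes measured in WT, 3 were more than 2-fold higher and none lower, namely Orc2 (1.18) and Orc6 (1.14) of the origin recognition complex and Pcna (1.08), the sliding clamp, and the same 3 were higher in Nr4a-TKO by 1.16, 1.07 and 1.06. Of 14 genes of S, G2 and M phase, none was higher and 2 were lower in WT, Rrm2 (a bound of -1.95) and Mki67 (-1.11), with changes of -0.21 and -0.54 in Nr4a-TKO. Some genes counted within 2-fold had a probe past it in WT. The probes of Tk1 ranged from -0.05 to 1.20 and those of the licensing gene Gmnn from -1.01 to -0.59.

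Of 10 measured genes of T cell quiescence, 5 were more than 2-fold lower in WT at 3 h and none more than 2-fold higher, with changes from -3.41 to 0.55 and a median of -0.91. The 5 were Klf2 (-3.41), a factor of naive T cell trafficking, Ccng2 (-2.12), Foxo1 (-1.75), Tob1 (-1.26) and Btg2 (-1.06). Btg1 and Foxp1, counted within 2-fold, had probes from -1.39 to -0.75 and from -1.26 to 0.90 in WT. In Nr4a-TKO 4 of the 10 were more than 2-fold lower, with changes from -3.29 to 0.98 and a median of -0.68. Of 8 genes of D cyclin regulation and mitogen response, Myc was the 1 that was higher, by 2.35 in WT cells and 1.82 in Nr4a-TKO cells. Stat5a, counted within 2-fold at 0.31, had probes from 0.31 to 1.18 in WT. Gsk3b (-1.41) and Fbxo31 (-1.03) were lower in WT on the probes that represent them, while their probes ranged from -1.41 to -0.14 for Gsk3b and from -1.03 to 0.85 for Fbxo31. Gsk3b encodes a kinase that marks D cyclins for export and degradation.

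The targets of p53 other than Cdkn1a were compared because Cdkn1a is one. In WT, 6 of 14 measured were more than 2-fold higher and 1 lower, where 8.4% and 8.55% of all genes were. Their median change was 0.93. Phlda3 (at least 2.34), Bax (1.93), Sesn2 (1.60), Trp53inp1 (1.20), Polk (1.14) and Zmat3 (1.01) were higher, and Sesn1 (-1.86) was lower. The Polk probes ranged from 0.38 to 1.15 in WT. Aen, counted within 2-fold at 0.07, had probes from 0.07 to 2.41. In Nr4a-TKO 1 was higher and 1 lower, and the median was 0.48. At 3 h the median difference of Nr4a-TKO minus WT over the 14 genes was -0.37, with none more than 2-fold apart and a range from -0.79 to 0.99. The brightest Cdkn1a probe differed by 0.84, and the other 2 Cdkn1a probes by -0.03 and -0.02.

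**Figure D5:**
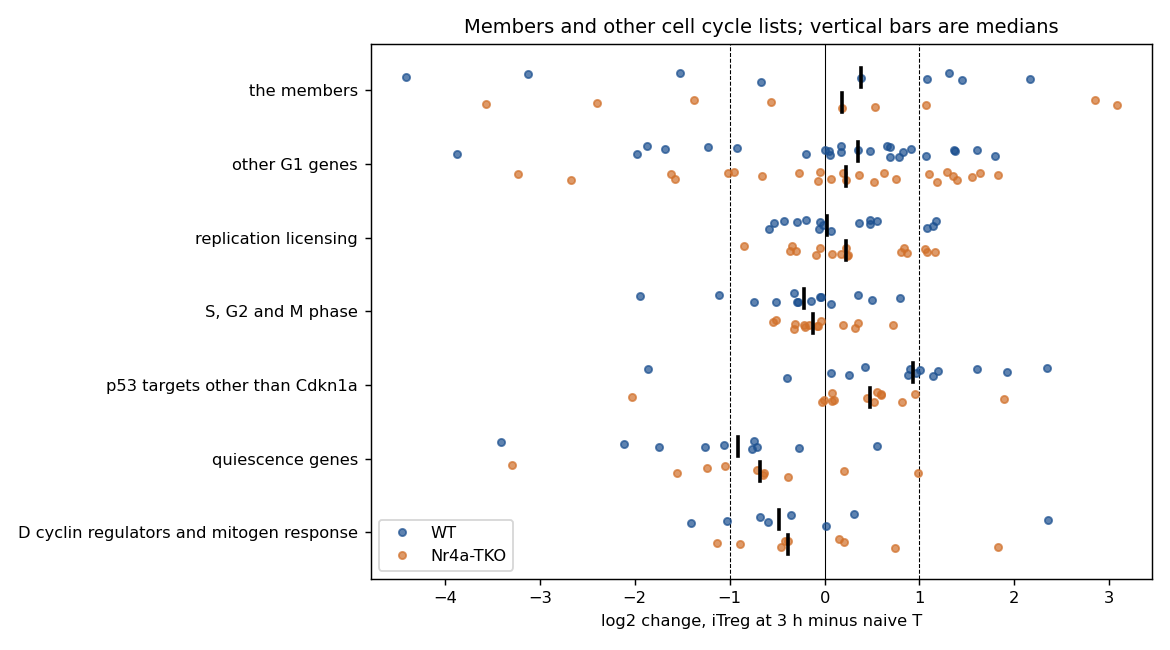
Log2 change between naive T cells and iTreg cells for the 9 measured members and for the genes of 6 other lists, WT in blue and Nr4a-TKO in orange, with black bars for medians, dashed lines at 2-fold and bounds drawn at their value. The members spread from -4.41 to 2.16 in WT, wider than the replication or division genes, and the other G1 genes from -3.87 to 1.79. The p53 targets have a median of 0.93 in WT and 0.48 in Nr4a-TKO.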

How the data were processed

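Each of the 4 arrays held 62976 spots. The authors deposited the output of Agilent Feature Extraction 11.5.1.1 per the labels, with mean and local background intensity of each spot, a processed intensity and flags, and a log2 value table. The methods name RMA. Set against the processed intensity, the deposited log2 values equalled its log2 less 1 constant for each array (6.35 to 6.58, SD 0.0029). Its column medians were -2.16, -2.17, -2.33 and -2.29. Probe coordinates are on mm9.

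From the intensities, normexp background correction (offset 0), quantile normalization, log2 and the mean over spots were computed in R 4.3.3 (limma 3.58.1), and comparisons and figures in Python 3.11.15 (pandas 2.3.3, numpy 2.4.6 and matplotlib 3.10.9). Control spots and 115 to 160 flagged spots per array were left out, and no spot was saturated. A gene took its brightest probe over the 4 arrays. A probe dim on one array was raised to the lowest level well above background there (3.07 to 3.45) and its difference is a bound. The number of arrays limits the precision. Repeated spots had a median SD of 0.16 to 0.18 below a log2 level of 6 and of 0.11 to 0.13 above it.

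Of 56605 probes, 41700 had a current symbol, 1518 were named by transcript, 520 by synonym and 8036 by the files, and 4831 had no name (RefSeq, GRCm38.p6). All probes of the members were described. From other lists, up to 4 genes per direction past 2-fold in WT were named by rule. Named after their values were seen were E2f3, Tfdp2, Btg2, Polk, Zmat3, Aen, Cdkn2b, Tk1, Gmnn, Btg1, Foxp1 and Stat5a. The members and lists were chosen with earlier results of these data known. Only the step that takes differences and counts those past 2-fold was run on simulated levels. Their spread was that of repeated spots, so background correction, normalization and the spread between mice were not tested. No p-value is given, since each group has 1 array.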

Additional observations from a re-analysis of the deposited data

How the results depend on the processing

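Under the alternative settings, 283 values of the members were recomputed, of which 227 moved by less than the SD of repeated spots and 56 by more. Part of the 227 could not move. The filters on dim probes leave members above background on the compared arrays as they were, and the mean of probes leaves genes with 1 probe. Of the 101 values past 2-fold as reported, which include such fixed ones, 39 moved by more than that SD and 0 changed sign. With a normexp offset of 50, which compresses dim signals, 1 member (Cdk4) instead of 4 was more than 2-fold higher in WT at 3 h and 0 instead of 1 in Nr4a-TKO against WT at 3 h. In Nr4a-TKO 2 members instead of 3 were then higher, since Cdk4 had a change of 0.99. The genes past 2-fold between genotypes were then 75 higher and 102 lower at 3 h and 101 and 87 in naive cells, and 958 and 933 for the change in WT and 846 and 816 in Nr4a-TKO. A 3-fold threshold left 1 member (Cdkn1a) higher in WT, where 769 of all 23224 genes were. Between genotypes at 3 h it left 0, where 136 of 23498 genes were higher and 203 lower. At 1.5-fold, 1 member (Cdkn1b) was lower in naive Nr4a-TKO cells, where 1208 of 23112 genes were. At that threshold 3 members (Cdk6, Cdkn1a and Cdkn2d) were higher at 3 h, where 1238 of 23498 genes were. Without background correction, 164 genes were higher and 188 lower at 3 h. Scaling the processed signal to the 75th percentile gave 649 and 624, and the median of all WT changes was then -0.11. The values deposited as a table gave 659 and 629, no filter on dim probes 907 and 871, and probes above background on both arrays 236 and 212, where 409 and 453 were found in the reported setting. No paired analysis was possible because each group had 1 array, and leaving out an array would leave its group empty. Signal over background limits the folds of dim probes: over the settings the Cdkn1a change ranged from 0.70 to 2.87 in WT, where 2.16 was reported as a bound, and from 1.19 to 3.75 in Nr4a-TKO, where 3.08 was (log2). Both lowest values came with the offset of 50.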
